A study of Mus musculus with 15 samples.

Results

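Oxidative phosphorylation genes encoded in the nucleus were followed in mouse embryonic stem cells in which Rpl11, Rpl14, Rpl18 or Rpl23, each a gene of the large ribosomal subunit, had been knocked down. They were taken by symbol: every gene whose symbol starts with Ndufa, Ndufb, Ndufc, Ndufs, Ndufv, Uqcr, Atp5 or Cox4 to Cox8, together with Sdha to Sdhd and Cyc1. Of the 24819 genes in the deposited tables, 95 had such a symbol. FPKM, the deposited unit, counts fragments per transcript length and library size, so that levels of different genes can be compared per length. A gene was tested if it reached 1 FPKM in at least 2 of 10 libraries, which 91 of the 95 and 12249 of all genes did. Each of the 91 was also at 1 FPKM or more in both control libraries, so none was let in by a knockdown alone. The 4 left out were Cox6a2, Cox7b2 and Cox8b, which are isoform genes of complex IV, and Ndufb4c, a copy of a complex I subunit gene, and all 4 stayed under 1 FPKM in each of the 10 libraries. By complex, 44 of the 91 belong to complex I (7 core subunits, 29 accessory subunits and 8 assembly factors), 4 to complex II, 9 to complex III, 17 to complex IV (Ndufa4 among them) and 17 to complex V (with Atp5s, a related protein that is no subunit).

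The respiratory chain oxidizes NADH at complex I and succinate at complex II, passes the electrons through ubiquinone to complex III and through cytochrome c to oxygen at complex IV, and uses the resulting proton gradient to make ATP at complex V. Complexes I, III, IV and V combine many nuclear-encoded subunits, made on cytosolic ribosomes and imported, with a few subunits encoded in mitochondrial DNA, whereas complex II is encoded in the nucleus alone. Embryonic stem cells in serum and leukemia inhibitory factor are known to rely strongly on glycolysis while keeping a working respiratory chain.

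Cells of the mouse embryonic stem cell line E14 were grown on gelatin in medium with serum and leukemia inhibitory factor and transfected with siRNA by DharmaFECT, per the labels' protocols. The control group received a non-targeting siRNA (siNT), and the other groups an siRNA to 1 of the 4 ribosomal protein genes (siRpl11, siRpl14, siRpl18, siRpl23); line, medium and transfection reagent are shared by all 5 groups. The titles give 48 h and the treatment protocol gives 3 days before harvest, and it was not settled which holds. Each group had 3 libraries from polyadenylated RNA, prepared with a strand-keeping kit: replicates 1 and 2 of every group stand in the first table (10 libraries) and the third library of every group in the second table (5 libraries), which the authors normalized separately. Whether replicates came from separate cultures is not said in the labels, and p-values therefore measure only how far these libraries spread, possibly for technical reasons.

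In the first table the targeted RNA was left at 24.0 to 51.6% of its siNT mean in its own knockdown. All 8 embryonic stem cell markers were tested, and their summed level was 7546 to 7959 FPKM in siNT, 6148 to 6585 in siRpl11 and 5018 to 5585 in the other knockdowns. Their median log2 fold changes were -0.76, -0.69, -0.54 and -0.60 in siRpl11, siRpl14, siRpl18 and siRpl23. The median was thus lowest in siRpl11, whose sum was the highest of the knockdowns. The third libraries gave medians of -0.36, -0.42, -0.22 and -0.31. In siRpl11 5 of the 8 were lower and 2 higher (Sox2 at 0.31 among them), and in each other knockdown 7 and 1. Over all genes tested, 43.6, 29.5, 34.7 and 30.8% were lower in the 4 knockdowns and 27.3, 33.3, 32.8 and 34.9% higher. The fibroblast and feeder markers Col1a2, Col3a1, Dcn and Lum were under 0.1 FPKM in every library of the first table, and all 7 summed to 16.7 to 16.9 FPKM in siNT and 4.18 to 9.50 in the knockdowns. Trophectoderm markers (7, of which Elf5 stayed under 0.1 FPKM) summed to 31.0 to 31.7 FPKM in siNT and siRpl11 and to 62.9 to 87.8 in the other knockdowns. Markers of the 2-cell-like state (6 in the tables) summed to 54.8 to 58.4 FPKM in siNT, 27.4 to 30.8 in siRpl11 and 120.5 to 143 in the other 3, primitive endoderm markers (6) to 3.40 to 3.46 in siNT and 5.01 to 7.66 in the knockdowns, and neuroectoderm markers (5) to 73.8 to 77.6 and 38.8 to 60.5. Such sums follow the most abundant genes. Of 4 neuroectoderm markers tested, 1 was higher and 1 lower in each knockdown (25% each way, below the shares of all genes). In siRpl11 the log2 fold change was -1.22 for Tubb3 and 1.41 for Pax6, and in siRpl18 -0.77 for Tubb3 and 0.96 for Nes. Of 6 trophectoderm markers tested, 2 were higher and 3 lower in siRpl11 (33.3 and 50%, against 27.3 and 43.6% of all genes). The summed marker levels thus moved with the knockdowns, and their part in the values below was not tested. In these bulk samples, fewer cells of a state and less RNA per cell cannot be told apart.

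Promoter sequence was at hand for 72 of the 91 genes in a RefSeq table on build GRCm38.p6, which is not the build of the expression tables. Letters of 4 motifs, named for factors known to act on respiratory genes, were searched on both strands from 250 bases before to 50 bases after the start: GCATGCGC for NRF1, CCGGAA for ETS factors such as GABPA, GGGCGG for Sp1 and AAGATGGC for YY1, none of which contains another. The NRF1 letters stood in 16.7% of the 72 promoters, in 5.86% of 9591 tested genes with an entry and in 2.80% of all 27025 entries. For the YY1 letters these shares were 12.5%, 5.05% and 2.88%, and for the ETS letters 37.5%, 29.2% and 15.2%. The Sp1 letters were in 44.4% of the members, 66.7% of tested genes and 35.9% of all entries. A match describes the letters and shows no bound factor. The 250 bases before the start are printed below for the ubiquitous and the tissue-restricted genes of a pair of complex IV subunits, whose RNA levels are compared further on, for Uqcr11, which fell, and for Ndufab1, which rose. Capitals mark matches to the ETS letters (CCGGAA or TTCCGG) and to the Sp1 letters (GGGCGG or CCGCCC).
Cox6b1, chr7:30626115-30626364, minus strand: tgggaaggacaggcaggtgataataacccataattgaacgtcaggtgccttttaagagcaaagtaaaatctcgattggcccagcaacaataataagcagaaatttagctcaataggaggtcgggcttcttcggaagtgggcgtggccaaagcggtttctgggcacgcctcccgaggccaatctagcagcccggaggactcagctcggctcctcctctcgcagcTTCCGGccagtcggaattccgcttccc
Cox6b2, chr7:4753095-4753344, minus strand: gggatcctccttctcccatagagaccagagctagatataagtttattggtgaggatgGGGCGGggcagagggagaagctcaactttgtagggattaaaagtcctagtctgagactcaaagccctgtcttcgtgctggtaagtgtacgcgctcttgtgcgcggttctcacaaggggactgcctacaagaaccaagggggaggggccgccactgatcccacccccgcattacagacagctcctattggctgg
Cox7a2, chr9:79759854-79760103, minus strand: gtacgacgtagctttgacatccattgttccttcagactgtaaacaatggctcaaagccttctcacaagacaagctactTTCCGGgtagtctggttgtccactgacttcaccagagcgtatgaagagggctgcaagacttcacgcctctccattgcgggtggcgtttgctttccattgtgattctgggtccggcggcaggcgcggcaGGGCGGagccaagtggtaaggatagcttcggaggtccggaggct
Cox7a1, chr7:30183921-30184170, plus strand: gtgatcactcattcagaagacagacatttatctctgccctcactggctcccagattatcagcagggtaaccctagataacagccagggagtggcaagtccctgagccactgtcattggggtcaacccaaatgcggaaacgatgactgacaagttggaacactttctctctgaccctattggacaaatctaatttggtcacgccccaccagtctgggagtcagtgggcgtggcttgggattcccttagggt
Uqcr11, chr10:80406822-80407071, minus strand: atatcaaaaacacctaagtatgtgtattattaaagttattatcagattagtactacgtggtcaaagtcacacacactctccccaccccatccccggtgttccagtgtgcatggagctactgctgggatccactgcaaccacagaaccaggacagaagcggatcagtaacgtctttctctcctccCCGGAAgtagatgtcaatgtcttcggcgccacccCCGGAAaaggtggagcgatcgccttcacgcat
Ndufab1, chr7:122101849-122102098, minus strand: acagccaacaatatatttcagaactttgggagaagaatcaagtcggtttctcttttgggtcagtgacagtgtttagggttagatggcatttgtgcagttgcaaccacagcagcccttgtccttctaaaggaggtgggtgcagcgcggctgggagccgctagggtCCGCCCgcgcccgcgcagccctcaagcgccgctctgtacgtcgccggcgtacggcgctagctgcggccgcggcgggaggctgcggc
Within these bases the ubiquitous genes Cox6b1 and Cox7a2 each held 1 ETS match, and the tissue-restricted Cox6b2 and Cox7a1 held 0. The ETS letters stood in 37.5% of the 72 promoters, and so few genes are not read as a contrast. Promoters of Cox4i1, Cox4i2, Ndufa4 and Ndufa4l2, also compared further on, are not printed. Cox7a2 and Cox6b2 also held 1 Sp1 match each, and Cox7a1 held none of the 4 motifs. Uqcr11 held 2 ETS matches, and 1 NRF1 match that runs past the end of the printed bases. Ndufab1 held 1 Sp1 match.

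In control cells the 91 genes were abundant. Their median siNT level was 126 FPKM, against 10.3 FPKM over all genes tested. By complex the median went from 75.0 FPKM for complex I through 112 for complex II and 177 for complex III to 294 for complex V and 316 for complex IV. Atp5b, the catalytic beta subunit of the ATP synthase, was highest at 1587 and 1619 FPKM, followed by Cox7c, a small subunit of complex IV, at 918 and 1012. The lowest were Atp5s at 3.67 and 2.82 FPKM and Cox8c, a testis-associated isoform gene of complex IV, at 2.75 and 4.33. Assembly factors of complex I, which build the complex without staying in it, had a median of 12.3 FPKM, with Ndufaf5 lowest at 5.37 ± 0.88 (SD, n = 2), whereas the accessory subunits had a median of 95.6. Together the 91 genes made up 3.36% ± 0.04 (SD, n = 2) of all FPKM in siNT, and 3.19 to 3.24% in the 4 knockdown means.

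Most of these genes moved by small amounts, in both directions. Each knockdown was compared with siNT by limma on log2(FPKM + 1), a scale that understates changes of genes with low FPKM, and a gene was called where its p, adjusted by Benjamini-Hochberg over all 12249 genes, was under 0.05. In siRpl11, 28 members rose and 27 fell (60.4% of 91), where 70.9% of all genes were called (27.3% higher, 43.6% lower). In siRpl14, 16 rose and 29 fell (49.5%), with 62.8% of all genes called (33.3% higher, 29.5% lower). In siRpl18, 19 rose and 32 fell (56.0%), with 67.6% of all genes called (32.8% higher, 34.7% lower). In siRpl23, 20 rose and 33 fell (58.2%), with 65.7% of all genes called (34.9% higher, 30.8% lower). On the deposited scale the share of members called was thus below that of all genes in each knockdown. With quantile normalization it was above it in siRpl11, where 32 members were higher and 34 lower, against 34.9 and 33.6% of all genes. The members' median log2 fold changes were 0.01, -0.04, -0.05 and -0.04 in siRpl11, siRpl14, siRpl18 and siRpl23, against -0.11, 0.02, -0.02 and 0.02 over all genes. Their median absolute change was 0.20, 0.18, 0.21 and 0.17, against 0.34, 0.27, 0.30 and 0.29 over all genes and 0.28, 0.20, 0.24 and 0.22 over the 1754 genes with a mean of 50 FPKM or more. The 4 comparisons share the siNT libraries, so their values are set side by side and not counted as separate support.

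The scale matters most in siRpl11. Median-ratio scaling moved the median of all genes there from -0.11 to 0.01, and the split of the members then went from 28 higher and 27 lower to 42 and 17, with 36.3% of all genes higher and 35.0% lower. With quantile normalization the split in siRpl14 was 23 higher and 26 lower. Without siNT replicate 1, 12 members were higher in siRpl18 and 13 in siRpl23. Of the 91 genes, 28 overlap another gene in RefSeq, 14 of them a protein-coding one, and 9 have a named pseudogene; reads shared with such a neighbour or copy could not be told apart.

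**Figure D1:**
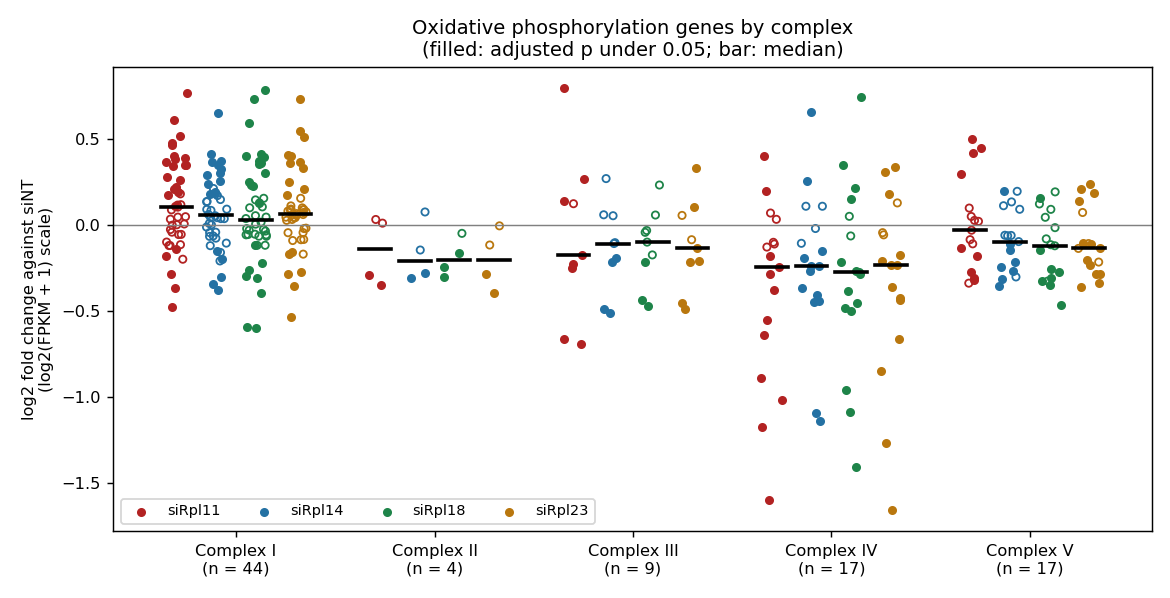
Each point is 1 of the 91 genes, placed by complex on the x axis and by its log2 fold change against siNT (log2(FPKM + 1) scale) on the y axis; colours are the 4 knockdowns, filled points have a limma adjusted p under 0.05 and bars are medians. The complex I medians lie above 0 (0.11, 0.06, 0.03 and 0.07) and the complex IV medians below it (-0.24, -0.24, -0.27 and -0.23).

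In complex I, the NADH dehydrogenase, more genes rose than fell in each comparison with siNT. Of its 44 genes, 19 rose and 5 fell in siRpl11, 13 rose and 5 fell in siRpl14, 14 rose and 8 fell in siRpl18, and 11 rose and 6 fell in siRpl23. The shares higher were 43.2, 29.5, 31.8 and 25.0%, where 27.3, 33.3, 32.8 and 34.9% of all genes were higher. Only in siRpl11 was this share above that of all genes. The shares lower were 11.4, 11.4, 18.2 and 13.6%, below the 43.6, 29.5, 34.7 and 30.8% of all genes. Under quantile normalization, median-ratio scaling and a correction for transcript length and GC content, 11 to 25 were higher and 2 to 11 lower, with more higher than lower each time, and in siRpl18 the length and GC correction turned the median from 0.03 to -0.01. The summed level of the 44 genes was 3656 and 3820 FPKM in siNT, 4184 and 4404 in siRpl11, 3947 and 4082 in siRpl14, 3953 and 4202 in siRpl18, and 3962 and 4122 in siRpl23. Every knockdown library was thus above both siNT libraries in this sum. The third libraries gave sums of 4210 FPKM in siNT and 4956, 5065, 4632 and 5142 in siRpl11, siRpl14, siRpl18 and siRpl23. Accessory subunits, 29 of the 44 genes, made up most of the genes that rose, with 14, 10, 11 and 8 higher and 1, 2, 2 and 1 lower. Their shares higher were 48.3, 34.5, 37.9 and 27.6%. Of the 7 core subunits, which hold the flavin and iron-sulfur centres, 3, 2, 2 and 2 rose and 1, 0, 1 and 1 fell. Of the 8 assembly factors, 2, 1, 1 and 1 were higher and 3, 3, 5 and 4 lower (37.5, 37.5, 62.5 and 50%, where 43.6, 29.5, 34.7 and 30.8% of all genes were lower). Their medians were -0.08, -0.18, -0.26 and -0.22, but 0.12, 0.00, -0.05 and -0.02 in the third libraries.

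Ndufb9, an accessory subunit of the membrane arm, had the largest rise among complex I subunits. It stood at 121 and 133 FPKM in siNT, 212 and 223 in siRpl11, 201 and 202 in siRpl14, 206 and 219 in siRpl18, and 205 and 220 in siRpl23, so that no knockdown library reached down to the control range. The log2 fold changes were 0.77, 0.66, 0.73 and 0.73, each ± 0.06 (SE), with limma adjusted p from 1.49e-06 to 5.84e-06. Its third-library differences were 0.59, 0.50, 0.42 and 0.52. Ndufab1, the mitochondrial acyl carrier protein that is also a complex I subunit, stood at 67.5 and 75.4 FPKM in siNT, 98.4 and 107 in siRpl11, 98.1 and 87.6 in siRpl14, 101 and 117 in siRpl18, and 102 and 108 in siRpl23. Again no knockdown library overlapped siNT, and the log2 fold changes were 0.52, 0.37, 0.60 and 0.55 (± 0.08 SE, limma adjusted p from 0.000134 to 0.00317). RefSeq names a pseudogene of Ndufab1, and reads shared with it could not be told apart. Ndufa13, an accessory subunit at the junction of the arms, was at 51.5 and 55.9 FPKM in siNT and between 67.6 and 73.2 FPKM in all 8 knockdown libraries. Its log2 fold changes were 0.39, 0.42, 0.40 and 0.37 (± 0.05 SE), which lie within 1 SE of each other. Ndufa11, a membrane-arm subunit, rose by 0.47, 0.35, 0.41 and 0.41 (± 0.06 SE) from 24.6 FPKM. Ndufb7, named after its values were seen, rose by 0.40, 0.33, 0.37 and 0.33 (± 0.04 SE) from 148 FPKM.

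Among the core subunits, Ndufs8, which holds iron-sulfur clusters on the path to ubiquinone, changed most. It was at 56.8 and 66.8 FPKM in siNT, 93.2 and 96.6 in siRpl11, 75.7 and 76.7 in siRpl14, 75.1 and 89.4 in siRpl18, and 80.6 and 83.4 in siRpl23. The siRpl11 libraries were the highest of the 10. The log2 fold changes were 0.61, 0.30, 0.41 and 0.41 (± 0.08 SE, limma adjusted p of 0.000102, 0.0105, 0.00179 and 0.00187). Without siNT replicate 1 the siRpl14 value was 0.19 (adjusted p 0.098). Ndufa7, an accessory subunit and the highest complex I gene in siNT at 339 ± 20.8 FPKM (SD, n = 2), rose by 0.39 ± 0.07 in siRpl11 and 0.23 ± 0.07 in siRpl18, with 0.14 and 0.09 in siRpl14 and siRpl23 short of the threshold. The siRpl18 call was lost without siNT replicate 1 (0.17, adjusted p 0.11) or siRpl18 replicate 2 (0.17, adjusted p 0.099).

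A pair of accessory subunits rose in siRpl11 and missed the threshold in the other knockdowns. Ndufb8 was at 160 and 158 FPKM in siNT and 200 and 204 in siRpl11, against 156 and 153 in siRpl14, 150 and 156 in siRpl18, and 158 and 155 in siRpl23. Only the siRpl11 libraries lie above the control range. Its log2 fold change in siRpl11 was 0.35 ± 0.04 (SE), and the tested difference from the mean of the other 3 knockdowns was 0.39 ± 0.03 (limma adjusted p 2.8e-06). Ndufs6, a zinc-binding subunit, was at 172 FPKM in both siNT libraries, 212 and 226 in siRpl11, 165 and 181 in siRpl14, 173 and 182 in siRpl18, and 169 and 193 in siRpl23. The siRpl11 value was 0.35 ± 0.07 and the difference from the other 3 was 0.30 ± 0.05 (limma adjusted p 0.000816). In the third libraries the siRpl11 difference was 0.31 for Ndufb8 and 0.42 for Ndufs6, and Ndufs6 was also higher there by 0.25, 0.16 and 0.22 in siRpl14, siRpl18 and siRpl23. Ndufb6, chosen after its values were seen, went the other way: its log2 fold changes were 0.04, 0.26, 0.30 and 0.36 (± 0.08 SE), and siRpl11 was 0.27 below the mean of the other 3 (-0.27 ± 0.07, limma adjusted p 0.00553). That difference was -0.13 (adjusted p 0.12) with median-ratio scaling. Its calls were also lost without siNT replicate 1, at 0.23 (adjusted p 0.1) in siRpl14 and 0.27 (adjusted p 0.054) in siRpl18, and in siRpl14 without siRpl14 replicate 1 (0.27, adjusted p 0.061) or 2 (0.25, adjusted p 0.074).

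Among the assembly factors, Ndufaf8 rose and Ndufaf7, Ndufaf6 and Ndufaf1 fell. Ndufaf8, which acts with Ndufaf5 in modifying the core subunit Ndufs7, was at 28.1 and 35.8 FPKM in siNT, 43.2 and 46.2 in siRpl11, 39.7 and 42.7 in siRpl14, 52.8 and 58.3 in siRpl18, and 45.7 and 45.6 in siRpl23. The siRpl18 libraries were the highest. Its log2 fold changes were 0.48, 0.37, 0.79 and 0.51 (± 0.10 SE, limma adjusted p from 4.65e-05 to 0.00713), with third-library differences of 0.57, 1.00, 0.89 and 0.80. Ndufaf5 itself was at 4.75 and 5.99 FPKM in siNT, 5.47 and 5.64 in siRpl11, 4.42 and 4.56 in siRpl14, 3.93 and 4.33 in siRpl18, and 4.27 and 4.14 in siRpl23. Its values of -0.31 and -0.28 (± 0.09 SE) in siRpl18 and siRpl23 passed the test, and without siNT replicate 2 they were -0.16 (adjusted p 0.12) and -0.14 (adjusted p 0.17). These calls were also lost without siRpl18 replicate 1 (-0.25, adjusted p 0.086), siRpl23 replicate 1 (-0.30, adjusted p 0.054) or siRpl23 replicate 2 (-0.27, adjusted p 0.079). Ndufaf7, a methyltransferase needed for complex I assembly, was at 11.4 and 11.9 FPKM in siNT, 8.63 and 9.01 in siRpl11, 7.97 and 9.54 in siRpl14, 7.16 and 7.52 in siRpl18, and 8.73 and 9.09 in siRpl23. It fell by 0.36, 0.38, 0.60 and 0.35 on the log2 scale (± 0.08 SE). In the third libraries Ndufaf7 was lower throughout, at 4.87 FPKM in siNT, and the differences from siNT were 0.12, -0.25, -0.23 and -0.05. With all 15 libraries in 1 fit the siRpl11 value was -0.20 (adjusted p 0.065). Ndufaf6 and Ndufaf1 were chosen after their values were seen. Ndufaf6 fell by 0.28, 0.34, 0.59 and 0.54 (± 0.07 SE) from 16.1 FPKM, but its third-library differences were 0.38, 0.18, -0.05 and 0.22, and over all 15 libraries the siRpl11 and siRpl14 values were -0.06 (adjusted p 0.66) and -0.17 (adjusted p 0.24). Ndufaf1 fell by 0.47 in siRpl11 and 0.40 in siRpl18 (± 0.08 SE), with third-library differences of -0.67 and -0.60.

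Complex II, succinate dehydrogenase, splits into a catalytic head (Sdha and Sdhb) and a membrane anchor (Sdhc and Sdhd), and the anchor genes fell. Sdhc was at 124 and 128 FPKM in siNT and between 94.3 and 102 FPKM in all 8 knockdown libraries. Its log2 fold changes were -0.35, -0.31, -0.30 and -0.39 (± 0.04 SE, limma adjusted p from 6.76e-06 to 4.57e-05). Sdhd was at 130 and 143 FPKM in siNT and between 109 and 118 FPKM in the 8 knockdown libraries, with log2 fold changes of -0.29, -0.28, -0.24 and -0.29 (± 0.05 SE, limma adjusted p from 0.000533 to 0.00186). For both genes the knockdown libraries lay below the control range. In the third libraries Sdhc differed by only -0.08, -0.02, -0.04 and -0.20, and Sdhd by -0.42, -0.19, -0.20 and -0.17. Sdha, the flavoprotein that oxidizes succinate, was at 97.9 and 98.8 FPKM in siNT, 96.6 and 102 in siRpl11, 103 and 105 in siRpl14, 84.2 and 91.8 in siRpl18, and 96.1 and 100.2 in siRpl23. It passed the test in siRpl18 only (-0.16 ± 0.05, adjusted p 0.0153), and not without siRpl18 replicate 1 (-0.10, adjusted p 0.13) or siNT replicate 2 (-0.15, adjusted p 0.061). Sdhb, the iron-sulfur subunit, was at 91.1 and 98.9 FPKM in siNT and between 82.4 and 99.2 in the knockdowns, and its values of 0.03, -0.14, -0.05 and -0.12 (± 0.08 SE) missed the threshold. The summed level of the 4 genes was 443 and 468 FPKM in siNT, 402 and 410 in siRpl11, 397 and 410 in siRpl14, 383 and 411 in siRpl18, and 384 and 402 in siRpl23. With median-ratio scaling 1 of the 4 rose and 2 fell in siRpl11, and 2 rose and 2 fell after the length and GC correction.

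In complex III, the cytochrome bc1 complex, 3 of 9 genes rose and 5 fell in siRpl11, 0 and 4 in siRpl14, 0 and 3 in siRpl18, and 2 and 5 in siRpl23. The shares lower were 55.6, 44.4, 33.3 and 55.6%, where 43.6, 29.5, 34.7 and 30.8% of all genes were lower. The shares higher were 33.3, 0, 0 and 22.2%, against 27.3, 33.3, 32.8 and 34.9% of all genes. In siRpl11 the split was 4 and 3 with median-ratio scaling and 4 and 4 after the length and GC correction. The small subunits went opposite ways. Uqcr11, a short membrane subunit, was at 248 and 278 FPKM in siNT, 156 and 169 in siRpl11, 191 and 183 in siRpl14, 187 and 192 in siRpl18, and 184 and 190 in siRpl23. All knockdown libraries lay below siNT and those of siRpl11 were the lowest. The log2 fold changes were -0.69, -0.49, -0.47 and -0.49 (± 0.06 SE, limma adjusted p from 4.32e-06 to 7.01e-05), and the third-library differences were -0.62, -0.36, -0.64 and -0.46. Uqcrq, the ubiquinone-binding protein next to cytochrome b, was at 96.8 and 105 FPKM in siNT, 61.4 and 65.5 in siRpl11, 68.1 and 73.1 in siRpl14, 70.9 and 77.8 in siRpl18, and 70.7 and 76.3 in siRpl23. Its order was the same, with log2 fold changes of -0.66, -0.51, -0.44 and -0.45 (± 0.07 SE) and third-library differences of -0.73, -0.46, -0.74 and -0.55. Uqcrq overlaps Gdf9 in RefSeq, and whether the authors counted reads by strand is not given in the sources used here.

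Uqcrb, the subunit that also takes part in ubiquinone binding, rose in siRpl11. It was at 140 and 121 FPKM in siNT, 250 and 205 in siRpl11, 165 and 149 in siRpl14, 162 and 144 in siRpl18, and 179 and 150 in siRpl23. Its replicates were wider apart than those of most members, and every knockdown library was above both siNT libraries. The log2 fold change was 0.80 ± 0.12 (SE) in siRpl11 (limma adjusted p 0.000138), the largest among the 91 genes there. The values of 0.27 and 0.23 in siRpl14 and siRpl18 missed the threshold. The 0.33 of siRpl23 passed it (adjusted p 0.0268) but not without siNT replicate 2 (0.23, adjusted p 0.18) or siRpl23 replicate 1 (0.21, adjusted p 0.2). The difference between siRpl11 and the other 3 knockdowns was 0.52 ± 0.09 (limma adjusted p 0.000806), and 0.20 in the third libraries. Cyc1, cytochrome c1, was at 178 and 176 FPKM in siNT, 212 and 213 in siRpl11, and between 178 and 191 in the other 6 knockdown libraries; it was chosen after its values were seen. It rose by 0.27 ± 0.04 in siRpl11 and stood 0.21 ± 0.03 above the other 3 (limma adjusted p 0.000465), with third-library differences of 0.18 and 0.18. Uqcrh, the hinge protein and the highest gene of the complex at 406 ± 18.2 FPKM (SD, n = 2) in siNT, had values of -0.25, -0.19, -0.17 and -0.22 (± 0.08 SE). Its calls in siRpl11, siRpl14 and siRpl23 rest on single libraries: without siNT replicate 2 the values were -0.21 (adjusted p 0.084), -0.15 (adjusted p 0.22) and -0.17 (adjusted p 0.15). They were also lost without replicate 1 of the same knockdown, at -0.20 (adjusted p 0.094), -0.11 (adjusted p 0.31) and -0.20 (adjusted p 0.12). The siRpl14 call (adjusted p 0.0479) needed siNT replicate 1 (-0.24, adjusted p 0.06 without it) and every siRpl11 and siRpl23 library as well, and that of siRpl23 needed siRpl23 replicate 2 (-0.24, adjusted p 0.065).

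Complex IV, cytochrome c oxidase, had the lowest median of the complexes in each knockdown on the deposited scale, and its genes divide into 11 subunit genes used in most tissues, the supercomplex factor Cox7a2l and 5 tissue-restricted isoform genes. In all, 2 of 17 rose and 10 fell in siRpl11, 2 and 11 in siRpl14, 4 and 11 in siRpl18, and 3 and 11 in siRpl23. The shares lower were 58.8, 64.7, 64.7 and 64.7%, where 43.6, 29.5, 34.7 and 30.8% of all genes were lower. The shares higher were 11.8, 11.8, 23.5 and 17.6%, against 27.3, 33.3, 32.8 and 34.9% of all genes. Under the 3 other scalings 2 to 5 were higher and 8 to 12 lower in these comparisons. Among the 11 widely used subunits the split was milder: 2 and 4, 1 and 6, 3 and 6, and 2 and 6. Their shares lower were 36.4, 54.5, 54.5 and 54.5%, that of siRpl11 below the share of all genes. Without the isoform genes the complex IV medians were -0.12, -0.17, -0.24 and -0.19, against -0.14, -0.21, -0.20 and -0.20 in complex II. Complex IV then had the lowest median of the complexes only in siRpl18. With quantile normalization the median of the 12 genes other than isoforms turned from -0.17 to 0.003 in siRpl14, and it was 0.02 instead of -0.12 in siRpl11 with median-ratio scaling. The summed level of the 17 genes was 5604 and 5867 FPKM in siNT and 5123 to 5500 FPKM in the 8 knockdown libraries. In the third libraries it was 7068 FPKM in siNT and 6695 to 7266 in the knockdowns, so the groups were not apart there, and the complex IV medians were -0.15, -0.07, -0.22 and 0.04.

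Of the subunits used in most tissues, Cox5b, a zinc-binding subunit, rose while Cox5a, its neighbour in the complex, and Cox6c fell; all 3 were chosen after their values were seen. Cox5b was at 288 and 286 FPKM in siNT and between 341 and 395 FPKM in the 8 knockdown libraries, with log2 fold changes of 0.40, 0.26, 0.35 and 0.34 (± 0.05 SE). Cox5a was at 397 and 382 FPKM in siNT and between 277 and 313 in the knockdown libraries (-0.37, -0.37, -0.45 and -0.42, ± 0.05 SE). Cox6c was at 604 and 668 FPKM in siNT and between 446 and 540 in the knockdown libraries (-0.29, -0.40, -0.48 and -0.43, ± 0.06 SE). None of the 3 had a knockdown library within the control range, and all limma adjusted p were at most 0.00195. Their third-library differences had the same signs, from 0.07 to 0.36 for Cox5b, -0.43 to -0.13 for Cox5a and -0.27 to -0.18 for Cox6c. RefSeq names a pseudogene of Cox5b. Cox7c, the most abundant complex IV gene, had values of -0.10, -0.24, -0.27 and -0.23 (± 0.08 SE). The last 3 passed the test, but without siNT replicate 2 they were -0.17, -0.20 and -0.16 (adjusted p 0.13, 0.084 and 0.15), without replicate 1 of the same knockdown they were -0.20, -0.17 and -0.17 (adjusted p 0.1, 0.082 and 0.15), and with quantile normalization they were within 0.003 of 0. Cox7a2l, which joins complexes III and IV into supercomplexes, was at 123 and 131 FPKM in siNT, 80.1 and 82.3 in siRpl11, 90.0 and 96.7 in siRpl14, 92.8 and 102 in siRpl18, and 96.6 and 101 in siRpl23. The siRpl11 libraries were the lowest. It fell by 0.64, 0.44, 0.38 and 0.36 (± 0.06 SE, limma adjusted p from 4.75e-06 to 0.000298), with third-library differences of -0.61, -0.23, -0.23 and -0.16.

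The isoform genes of complex IV were low in embryonic stem cells beside their ubiquitous counterparts and changed far more. Of the 5 tested, 0, 1, 1 and 1 rose and 5, 4, 4 and 4 fell, under the other scalings too, with medians of -1.02, -0.45, -0.96 and -0.85. In the third libraries the medians of these 5 were -0.99, -0.17, -0.61 and -0.03, so those of siRpl14 and siRpl23 were much smaller there. Cox4i1 encodes the ubiquitous form of subunit 4, and Cox4i2 a form known from lung. Cox4i1 was at 636 and 645 FPKM in siNT and between 651 and 775 in the knockdown libraries, with log2 fold changes of 0.07, 0.11, 0.22 and 0.18 (± 0.05 SE), of which those in siRpl18 and siRpl23 passed the test. The siRpl23 call was lost without siNT replicate 1 (0.17, adjusted p 0.053) or siRpl23 replicate 1 (0.17, adjusted p 0.059). Cox4i2 was at 9.81 and 7.32 FPKM in siNT, 1.89 and 2.38 in siRpl11, 3.18 and 3.74 in siRpl14, 3.68 and 3.26 in siRpl18, and 2.63 and 3.26 in siRpl23. No knockdown library came near the control range, and the siRpl11 libraries were the lowest. It fell by 1.60, 1.09, 1.09 and 1.27 (± 0.14 SE, limma adjusted p from 4.05e-06 to 7.67e-05), to 24.9, 40.4, 40.5 and 34.4% of the siNT mean. The third libraries gave -1.71, -1.17, -0.83 and -1.16. Cox4i2 overlaps Bcl2l1 in RefSeq, which went the other way (0.35, 1.28, 1.12 and 1.28, ± 0.06 SE).

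Subunit 7a showed the same division. Cox7a2, the ubiquitous form, was at 211 and 227 FPKM in siNT and between 168 and 211 in the knockdown libraries, with values of -0.13, -0.24, -0.28 and -0.23 (± 0.07 SE). The calls in siRpl14, siRpl18 and siRpl23 were lost without siNT replicate 2 (-0.19, -0.23 and -0.18 with adjusted p of 0.11, 0.056 and 0.12) and without siRpl14 replicate 1 (-0.18, adjusted p 0.12), siRpl18 replicate 1 (-0.19, adjusted p 0.062) or siRpl23 replicate 2 (-0.21, adjusted p 0.092). Cox7a2 overlaps Tmem30a in RefSeq. Cox7a1, the form of heart and skeletal muscle, was at 46.3 and 44.6 FPKM in siNT, 21.1 and 22.8 in siRpl11, 29.5 and 37.0 in siRpl14, 21.8 and 24.1 in siRpl18, and 26.1 and 30.7 in siRpl23. All knockdown libraries were below siNT, and those of siRpl14 and siRpl23, which overlapped each other, were above those of siRpl11 and siRpl18. It fell by 1.02, 0.45, 0.96 and 0.66 (± 0.10 SE, limma adjusted p of 1.22e-05, 0.00361, 2.05e-05 and 0.000288). In the third libraries the differences were -0.99, -0.23, -0.62 and -0.03. Subunit 8 has Cox8a as its ubiquitous form, at 655 and 650 FPKM in siNT and 587 to 690 in the knockdowns, where no comparison passed the test. Cox8c was at 2.75 and 4.33 FPKM in siNT, 1.06 and 0.91 in siRpl11, 1.00 and 1.05 in siRpl14, 0.81 and 0.56 in siRpl18, and 0.36 and 0.47 in siRpl23. It fell by 1.17, 1.14, 1.41 and 1.66 (± 0.15 SE), yet the third siNT library was itself at 1.04 FPKM and the third-library differences were -0.38, 0.19, -0.61 and 0.04. Cox6a1, ubiquitous subunit 6a, was at 435 and 462 FPKM in siNT with values of 0.20, 0.11, 0.16 and 0.13 (± 0.06 SE). Its calls in siRpl11 and siRpl18 were lost without siNT replicate 1 (0.16, adjusted p 0.085, and 0.11, adjusted p 0.21), and without siRpl11 replicate 2 (0.17, adjusted p 0.081) or siRpl18 replicate 2 (0.07, adjusted p 0.3). That in siRpl18 (adjusted p 0.04) also needed every siRpl11 and siRpl23 library.

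Cox6b2, known from testis, was the isoform gene whose direction differed between knockdowns. It was at 43.4 and 38.4 FPKM in siNT, 25.8 and 29.5 in siRpl11, 62.3 and 68.2 in siRpl14, 64.1 and 74.4 in siRpl18, and 51.8 and 49.9 in siRpl23. The siRpl11 libraries lay below the control range and the other 6 above it. The log2 fold changes were -0.55, 0.66, 0.74 and 0.31 (± 0.09 SE, limma adjusted p of 0.000282, 0.000107, 3.87e-05 and 0.0106), and the difference of siRpl11 from the mean of the other 3 was -1.12 ± 0.07 (limma adjusted p 5.98e-07). Cox6b2 in the third libraries was at 25.4 FPKM in siNT, 28.1 in siRpl11, 97.6 in siRpl14, 100.4 in siRpl18 and 75.4 in siRpl23. The differences in siRpl14, siRpl18 and siRpl23 were larger there (1.90, 1.94 and 1.53), while siRpl11 stood at 0.14, and over all 15 libraries its value was -0.32 (adjusted p 0.18). The siRpl23 call was lost without siNT replicate 2 (0.22, adjusted p 0.09) or siRpl23 replicate 1 (0.28, adjusted p 0.057). Cox6b1, the ubiquitous form, was at 527 and 557 FPKM in siNT and between 434 and 511 in the knockdown libraries, with values of -0.24, -0.15, -0.27 and -0.17 (± 0.06 SE). The siRpl14 and siRpl23 calls were lost without siNT replicate 2 (-0.11, adjusted p 0.21, and -0.13, adjusted p 0.13). They were also lost without siRpl14 replicate 1 (-0.08, adjusted p 0.29) or siRpl23 replicate 2 (-0.15, adjusted p 0.11), and that of siRpl14 (adjusted p 0.044) needed every siRpl11 and siRpl23 library. The third-library differences were 0.10, 0.22, -0.07 and 0.20. The summed levels of trophectoderm and 2-cell-like markers given above were also higher in siRpl14, siRpl18 and siRpl23 than in siNT, and their part in the Cox6b2 values was not tested.

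Ndufa4, once assigned to complex I and now to complex IV, and its isoform gene Ndufa4l2, known as a target of hypoxia-inducible factor, formed the last of these pairs. Ndufa4 was at 357 and 392 FPKM in siNT and between 325 and 382 in the knockdown libraries. It passed the test in siRpl11 (-0.18 ± 0.05, adjusted p 0.0113), but not without siNT replicate 2 (-0.11, adjusted p 0.1), without siRpl11 replicate 1 (-0.16, adjusted p 0.068) or with median-ratio scaling (-0.04, adjusted p 0.51). Ndufa4l2 was at 42.1 and 37.3 FPKM in siNT, 19.7 and 22.2 in siRpl11, 33.1 and 32.5 in siRpl14, 25.4 and 30.2 in siRpl18, and 19.6 and 23.7 in siRpl23. All knockdown libraries were below siNT, those of siRpl11 and siRpl23 most. The log2 fold changes were -0.89, -0.27, -0.50 and -0.85 (± 0.10 SE), with third-library differences of -1.12, -0.17, -0.22 and -0.57. The siRpl14 call (adjusted p 0.0462) was lost without siNT replicate 1 (-0.18, adjusted p 0.25) and without either siRpl14 replicate (-0.28 and -0.25, adjusted p 0.11 and 0.14). Ndufa4l2 overlaps Shmt2, a mitochondrial enzyme of serine metabolism, in RefSeq, and Shmt2 fell by 1.07, 0.85, 0.91 and 0.99 (± 0.05 SE). How far reads of one entered the other was not tested.

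**Figure D2:**
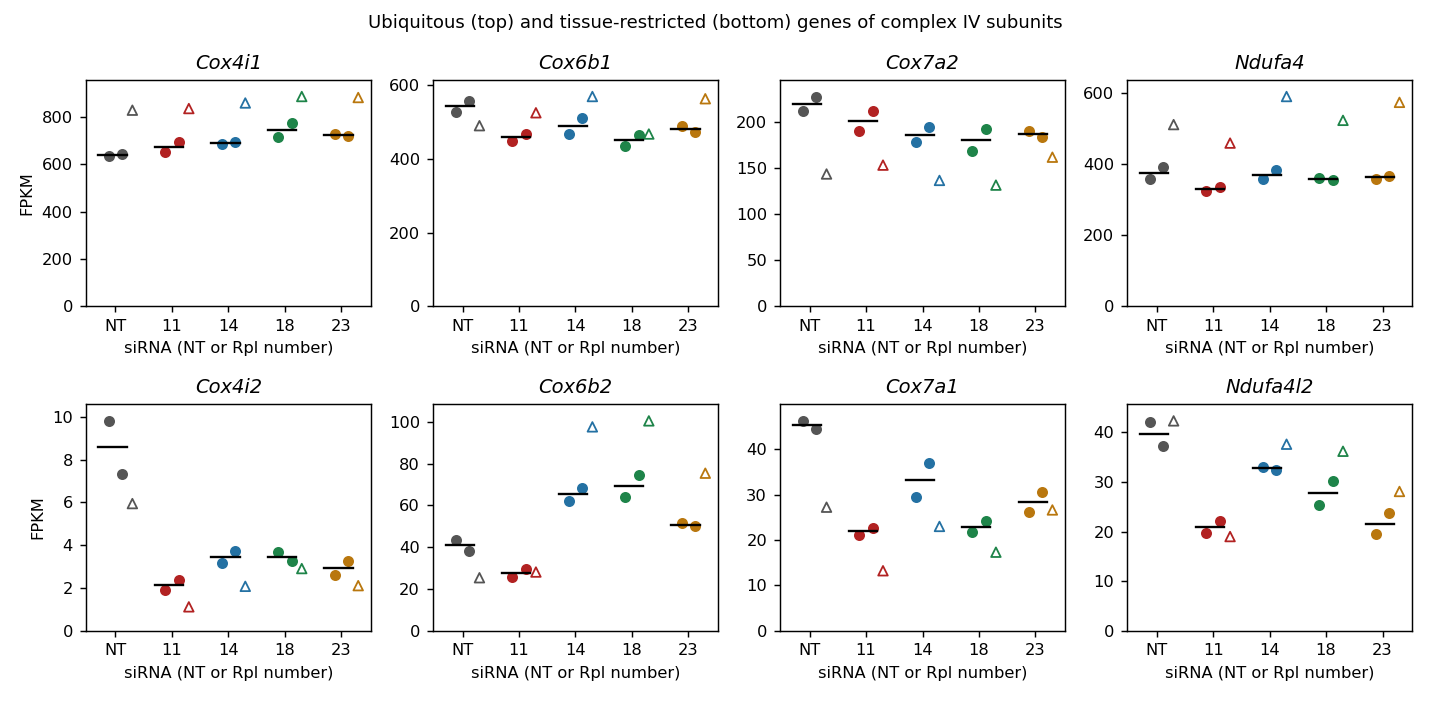
FPKM of 4 ubiquitous complex IV genes (top) and of their tissue-restricted counterparts (bottom), with the siRNA on the x axis; filled points are replicates 1 and 2, bars their mean, and open triangles the third library from the separately normalized table. In replicates 1 and 2, Cox4i2 falls from 9.81 and 7.32 FPKM in siNT to at most 3.74 in the knockdowns. In these replicates Cox6b2 lies below siNT in siRpl11 and above it in the other knockdowns. The Cox6b2 triangle of siRpl11 lies above that of siNT.

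Complex V, the ATP synthase, has a catalytic F1 part and a membrane Fo part joined by stalks. Of its 17 genes, 4 rose and 5 fell in siRpl11, 1 and 7 in siRpl14, 1 and 7 in siRpl18, and 4 and 9 in siRpl23. The shares lower were 29.4, 41.2, 41.2 and 52.9%, where 43.6, 29.5, 34.7 and 30.8% of all genes were lower. The shares higher were 23.5, 5.9, 5.9 and 23.5%, against 27.3, 33.3, 32.8 and 34.9% of all genes. The split depended on the scaling: with quantile normalization 5 rose and 4 fell in siRpl14, 5 and 6 in siRpl18 and 5 and 5 in siRpl23, and with median-ratio scaling 8 rose and 2 fell in siRpl11. The summed level was 6565 and 6884 FPKM in siNT, 6708 and 6910 in siRpl11, 6035 and 6284 in siRpl14, 5815 and 6081 in siRpl18, and 6012 and 6101 in siRpl23. The siRpl11 libraries thus overlapped siNT and those of the other 3 knockdowns lay below it. The third libraries gave 7735 FPKM in siNT, 8068 in siRpl11 and 7674, 7391 and 7932 in siRpl14, siRpl18 and siRpl23.

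Of the large F1 subunits, Atp5b and Atp5a1 were higher in siRpl11 than in the other 3 knockdowns on the deposited scale, while Atp5c1 fell in all 4. Atp5b was at 1587 and 1619 FPKM in siNT, 1477 and 1548 in siRpl11, 1252 and 1334 in siRpl14, 1212 and 1307 in siRpl18, and 1254 and 1286 in siRpl23. Its log2 fold changes were -0.31, -0.35 and -0.34 (± 0.06 SE) in siRpl14, siRpl18 and siRpl23 and -0.08 in siRpl11, which missed the threshold. The difference of siRpl11 from the other 3 was 0.25 ± 0.05 (limma adjusted p 0.00111), 0.27 in the third libraries, and 0.04 (adjusted p 0.15) with quantile normalization. Atp5a1, the alpha subunit, had values of -0.11, -0.25, -0.33 and -0.29 (± 0.05 SE), and a difference of 0.18 ± 0.04 between siRpl11 and the other 3 (limma adjusted p 0.00246) that was -0.03 with quantile normalization; it overlaps Haus1 in RefSeq. Atp5c1, the gamma subunit of the rotor, was at 236 and 255 FPKM in siNT and between 175 and 198 in the knockdown libraries, and fell by 0.31, 0.36, 0.47 and 0.36 (± 0.04 SE). RefSeq names a pseudogene of Atp5c1. The small F1 subunits differed from these. Atp5e, the epsilon subunit, was at 272 and 316 FPKM in siNT and 406 and 395 in siRpl11, a rise of 0.45 ± 0.07, while Atp5d, the delta subunit, was at 153 and 150 in siNT and 135 and 133 in siRpl11. Atp5d was -0.32 ± 0.04 lower in siRpl11 than in the other 3 (limma adjusted p 0.000153), and -0.03 (adjusted p 0.46) with the length and GC correction; it overlaps Cbarp in RefSeq. Atp5a1, Atp5c1, Atp5d and Atp5e were chosen after their values were seen.

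The c-ring of Fo is encoded by 3 genes whose mature proteins are known to be identical, and their RNAs did not move alike. Atp5g1 was at 202 and 215 FPKM in siNT, 270 and 290 in siRpl11, 228 and 231 in siRpl14, 219 and 237 in siRpl18, and 232 and 244 in siRpl23. Atp5g2 was at 271 and 281 FPKM in siNT, 382 and 402 in siRpl11, 302 and 332 in siRpl14, 291 and 344 in siRpl18, and 312 and 340 in siRpl23. Atp5g3, the most abundant of the 3, was at 465 FPKM in both siNT libraries, 375 and 370 in siRpl11, 438 and 424 in siRpl14, 379 and 374 in siRpl18, and 396 and 395 in siRpl23. The first 2 genes were thus above the control range, and Atp5g3 below it, in every knockdown library. In siRpl11 the log2 fold changes were 0.42 ± 0.05 for Atp5g1, 0.50 ± 0.08 for Atp5g2 and -0.32 ± 0.04 for Atp5g3 (limma adjusted p of 6.56e-05, 0.000258 and 3.87e-05). The third libraries gave 0.29, 0.37 and -0.39. In siRpl14 and siRpl18 the values of 0.14 and 0.12 for Atp5g1 and 0.20 and 0.19 for Atp5g2 missed the threshold. In siRpl23 both passed it (0.19 and 0.24) and lost it without siNT replicate 1 (0.14, adjusted p 0.088, and 0.21, adjusted p 0.11) or siRpl23 replicate 2 (0.15, adjusted p 0.086, and 0.18, adjusted p 0.15), and that of Atp5g2 also without siNT replicate 2 (0.27, adjusted p 0.052). Atp5g3 fell by 0.11, 0.31 and 0.23 in siRpl14, siRpl18 and siRpl23, the first of which (adjusted p 0.0301) was lost without either siNT library (-0.11, adjusted p 0.083 and 0.084), without siRpl14 replicate 2 (-0.09, adjusted p 0.16) and without either siRpl23 library (-0.11, adjusted p 0.05 and 0.051).

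Differences among the knockdowns were tested directly. Among the 4 knockdowns, 43 of the 91 genes differed by limma's moderated F test (47.3%, where 60.8% of all genes did). By complex these were 16 of 44 in complex I, 1 of 4 in II, 6 of 9 in III, 8 of 17 in IV and 12 of 17 in V. The count was 26 without siRpl11 replicate 1 and 20 without siRpl11 replicate 2. Against the mean of the other 3, 29 members were higher in siRpl11 and 13 lower, where 62.6% of all genes differed (18.4% higher, 44.2% lower). In complex V 10 of 17 were higher in siRpl11 and 2 lower, and in complex I 13 of 44 and 3. Median-ratio scaling turned the split of the 91 from 29 and 13 to 59 and 3, and the length and GC correction to 57 and 3, with 32.0 and 36.9% of all genes higher. Leaving out siRpl11 replicate 1 left 6 lower, and leaving out siRpl11 replicate 2 left 17 higher. The members with the largest differences were Cox6b2 below and Uqcrb above, described with their complexes.

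**Figure D3:**
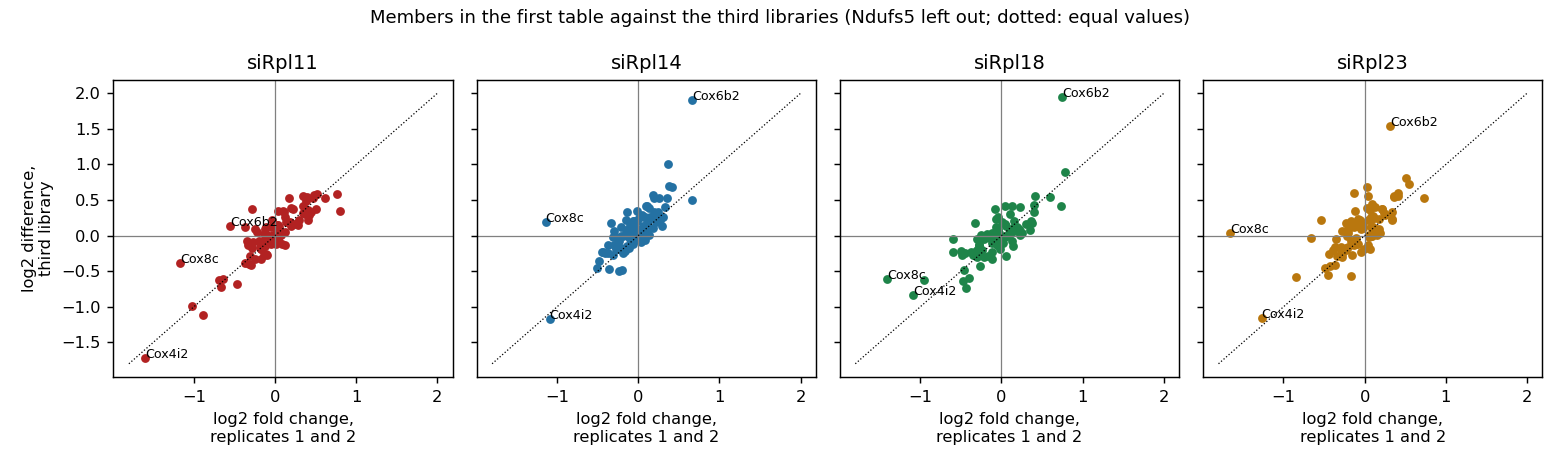
For each knockdown, the log2 fold change of a member from replicates 1 and 2 (x axis) is set against its log2 difference from siNT in the third library (y axis), with the dotted line at equal values and Ndufs5 left out. Over all 91 genes the medians in siRpl11, siRpl14, siRpl18 and siRpl23 were 0.01, -0.04, -0.05 and -0.04 on the x axis. On the y axis they were 0.06, 0.09, -0.01 and 0.11. Cox8c is below -1 on the x axis and between -0.61 and 0.19 on the y axis, and Cox6b2 lies well above the line in siRpl14, siRpl18 and siRpl23.

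The third libraries have their own siNT library and were set apart from every test above. Of the members called in replicates 1 and 2, 49 of 55 in siRpl11, 40 of 45 in siRpl14, 49 of 51 in siRpl18 and 44 of 53 in siRpl23 had the same sign there (89.1, 88.9, 96.1 and 83.0%). Over all called genes these shares were 91.8, 91.0, 90.7 and 88.9%. For the difference of siRpl11 from the other 3 it was 39 of 42 members, against 96.7% of all called genes. The members' median in the third libraries was 0.06, 0.09, -0.01 and 0.11, against 0.01, -0.04, -0.05 and -0.04 in replicates 1 and 2. Its sign thus turned in siRpl14 and siRpl23. The median of complex I in the third libraries was 0.14, 0.18, 0.03 and 0.23, and that of complex IV -0.15, -0.07, -0.22 and 0.04. For complex V it was 0.00, 0.01, -0.03 and 0.07, against -0.03, -0.10, -0.12 and -0.13 in replicates 1 and 2. Ndufs5, a complex I subunit with a named pseudogene and a mean of 17.2 FPKM in siNT in the first table, was listed in the second at 0.000861 FPKM in siNT, 0.000804 in siRpl11, 4.74 in siRpl14, 0.00074 in siRpl18 and 11.3 in siRpl23. Values so near 0 were found in the second table for 27 genes with a mean over 10 FPKM in the first. No difference is printed for Ndufs5 itself there. It stayed in the third-library medians and sums and, where called, in the counts of equal sign. Other such genes likewise stayed in the shares over all called genes, where called.

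Beside the respiratory complexes, genes of glycolysis fell: of 20 tested, 0 rose and 19, 19, 19 and 20 fell in siRpl11, siRpl14, siRpl18 and siRpl23, with medians of -0.80, -0.54, -0.67 and -0.67. The shares lower were 95, 95, 95 and 100%, where 43.6, 29.5, 34.7 and 30.8% of all genes were lower. Under the other scalings 0 or 1 rose and 18 to 20 fell. Pfkp, a phosphofructokinase at the committed step of glycolysis, was at 206 FPKM in both siNT libraries and between 47.4 and 80.7 FPKM in the 8 knockdown libraries. It fell by 2.02, 1.43, 1.61 and 1.66 (± 0.09 SE), with third-library differences from -1.97 to -1.58. Of 18 genes of the tricarboxylic acid cycle and pyruvate dehydrogenase, which feed the chain with NADH and succinate, 1, 0, 0 and 0 rose and 12, 9, 11 and 9 fell, with medians of -0.23, -0.15, -0.15 and -0.12. Their shares lower were 66.7, 50, 61.1 and 50%, against the same shares of all genes. The shares higher were 5.6, 0, 0 and 0%, against 27.3, 33.3, 32.8 and 34.9% of all genes. The median absolute change of these 18 was above that of the 91 members in siRpl11 (0.23 against 0.20) and below it in the other 3 (0.15, 0.15 and 0.12 against 0.18, 0.21 and 0.17). With median-ratio scaling 3 rose and 6 fell in siRpl11. Idh2, the mitochondrial NADP-dependent isocitrate dehydrogenase, was at 56.7 and 57.8 FPKM in siNT, 15.4 and 17.6 in siRpl11, 26.9 and 30.6 in siRpl14, 21.7 and 24.2 in siRpl18, and 24.0 and 25.7 in siRpl23. All knockdown libraries were far below siNT, and it fell by 1.73, 0.97, 1.28 and 1.17 (± 0.08 SE).

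**Figure D4:**
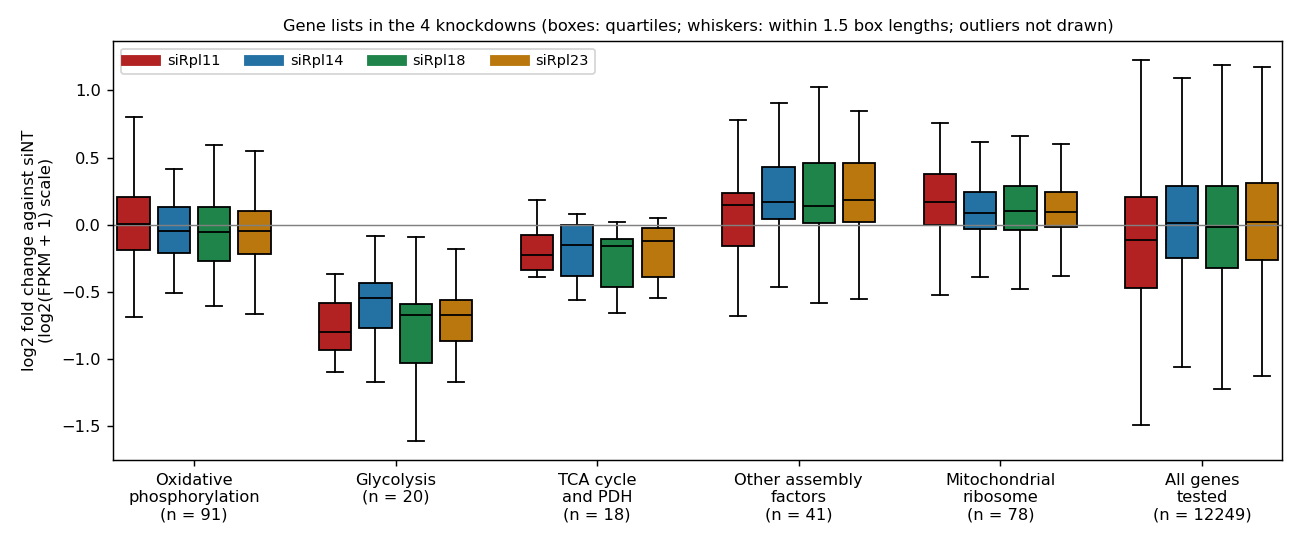
Boxes show the quartiles of log2 fold changes against siNT in replicates 1 and 2 (log2(FPKM + 1) scale). They are drawn for the 91 oxidative phosphorylation genes, for 4 lists and for all genes tested. Whiskers lie within 1.5 box lengths, and values beyond them are not drawn. The 91 genes centre near 0, the 20 glycolysis genes centre between -0.80 and -0.54, and other assembly factors and mitochondrial ribosomal protein genes centre above 0.

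Assembly factors outside the symbol rule rose more often than they fell in replicates 1 and 2: of 41 tested, 15, 18, 19 and 21 rose and 10, 5, 6 and 5 fell, with medians of 0.15, 0.17, 0.14 and 0.19. The third-library medians were 0.06, 0.16, -0.01 and 0.08. Of the called genes of this list 100, 78.3, 76.0 and 73.1% had the same sign there, against 91.8, 91.0, 90.7 and 88.9% of all called genes. The shares higher were 36.6, 43.9, 46.3 and 51.2%, where 27.3, 33.3, 32.8 and 34.9% of all genes were higher. The shares lower were 24.4, 12.2, 14.6 and 12.2%, against 43.6, 29.5, 34.7 and 30.8% of all genes. In siRpl11 the split was 23 and 7 with median-ratio scaling. Sco2, which delivers copper to complex IV and is known as a p53 target, was at 4.03 and 4.35 FPKM in siNT, 13.1 and 15.0 in siRpl11, 17.0 and 17.9 in siRpl14, 19.1 and 20.2 in siRpl18, and 19.5 and 17.2 in siRpl23. Its knockdown libraries were all above siNT, with the siRpl11 libraries the lowest of them. It rose by 1.53, 1.83, 1.99 and 1.90 (± 0.08 SE, limma adjusted p from 2.1e-08 to 1.47e-07). Sco2 in the third libraries was at 22.1 FPKM in siNT and 35.5 to 51.8 in the knockdowns (0.66, 1.19, 1.15 and 1.09). Of the assembly factors of complex II, Sdhaf3 fell by 0.68 ± 0.14 in siRpl11 and Sdhaf4 fell by 0.64, 0.41, 0.92 and 0.43 (± 0.08 SE). The Sdhaf4 values in siRpl14 and siRpl23 were -0.15 (adjusted p 0.34) and -0.18 (adjusted p 0.25) with all 15 libraries in 1 fit.

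Electron carriers and ubiquinone synthesis genes were mixed, with 5, 4, 5 and 4 of 17 higher (29.4, 23.5, 29.4 and 23.5%) and 5, 6, 6 and 5 lower (29.4, 35.3, 35.3 and 29.4%). Over all genes 27.3, 33.3, 32.8 and 34.9% were higher and 43.6, 29.5, 34.7 and 30.8% lower. The counts of this list are not read as a difference from those shares. Coq2, the prenyltransferase of ubiquinone synthesis, fell from 25.7 and 23.9 FPKM in siNT to 7.60 and 8.38 in siRpl11 and to between 11.6 and 15.3 in the other knockdown libraries (-1.52, -0.67, -0.94 and -0.78, ± 0.07 SE). Coq4, a scaffold of the same pathway, rose by 0.61, 0.81, 0.68 and 0.82 (± 0.07 SE). Etfdh, which passes electrons from fatty acid and amino acid oxidation to ubiquinone, was at 14.5 ± 0.68 FPKM (SD, n = 2) in siNT and between 26.2 and 33.3 in siRpl14, siRpl18 and siRpl23, and its difference of siRpl11 from these 3 was -0.74 ± 0.05 (limma adjusted p 1.53e-06). Cycs, cytochrome c itself, passed no test (-0.08, 0.01, -0.08 and 0.03, ± 0.09 SE).

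Regulators of mitochondrial gene expression also went both ways, with 6, 6, 4 and 6 of 16 higher (37.5, 37.5, 25.0 and 37.5%) and 5, 4, 5 and 4 lower. Over all genes 27.3, 33.3, 32.8 and 34.9% were higher, and the list's counts are not read as a difference from that background. Nrf1, a transcription factor of respiratory genes, was at 23.8 and 23.6 FPKM in siNT, 37.2 and 40.7 in siRpl11, 32.5 and 33.9 in siRpl14, 34.9 and 37.7 in siRpl18, and 34.4 and 33.2 in siRpl23. Every knockdown library was above siNT, and it rose by 0.69, 0.47, 0.60 and 0.49 (± 0.06 SE). Gabpa, the DNA-binding subunit of an ETS factor, had values of -0.16, -0.34, -0.28 and -0.25 (± 0.05 SE), of which that in siRpl11 was lost with median-ratio scaling (-0.03, adjusted p 0.63), without siNT replicate 2 (-0.14, adjusted p 0.076) or without siRpl11 replicate 1 (-0.15, adjusted p 0.069). Tfam, which packages mitochondrial DNA, rose by 0.35 ± 0.05 in siRpl11. Polrmt, the mitochondrial RNA polymerase, fell by 0.74 ± 0.11 in siRpl11 and 0.43 ± 0.11 in siRpl18. The coactivator gene Ppargc1b fell from 1.58 ± 0.21 FPKM (SD, n = 2) in siNT to between 0.57 and 0.77 FPKM, while Ppargc1a was at 0.03 FPKM or less in all 10 libraries. The transcripts of mitochondrial DNA could not be set beside these values, since 0 of 26 symbols looked up were found in the tables.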

How the data were processed

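RNA was sequenced from E14 mouse embryonic stem cells in 5 groups of 3 libraries. The authors deposited FPKM per gene, from STAR and Cuffnorm on mm9 per the submitters' processing notes. Tool versions, the annotation and the handling of strand in counting were not given in the sources used here. In addition, the authors normalized 10 libraries (replicates 1 and 2) in one table and the third library of each group in another, so tests were run within the first table alone. FPKM does not give the depth, so no counting interval was computed. In the first table, 2 columns that match no sample were not used.

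From these values log2(FPKM + 1) was computed for the 12249 of 24819 genes with at least 1 FPKM in 2 or more of the 10 libraries. One limma 3.58.1 model (R 4.3.3) over all 5 groups, with 5 residual degrees of freedom, compared every knockdown with siNT and siRpl11 with the average of the other 3 knockdowns, and tested for differences among the knockdowns by a moderated F test. P-values were adjusted by Benjamini-Hochberg over all 12249 genes, with a threshold of 0.05. Tested on simulated data for siRpl11 against siNT with 12249 genes, this recovered 34%, 86%, 96% and 100% of genes changed by 0.25, 0.5, 1 and 2 on the log2 scale. There 50 genes were changed at each size, and 0.07% of the 12049 unchanged genes were called. The spreads were shuffled among genes. In the data 70.9% of genes were called in siRpl11, so the adjusted threshold differs and these shares need not carry over. Third-library differences are differences of log2(FPKM + 1) within the second table, with no test.

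Alternatives were another pseudocount, no filter, quantile normalization, median-ratio scaling, a correction for transcript length and GC content (the members' median longest transcript is 1129 bases, against 3274 for all genes), the groups compared alone, a replicate block, all 15 libraries in 1 fit and each library left out. Promoters and neighbouring genes come from RefSeq on GRCm38.p6, which differs from mm9, and serve for names and letters only.

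The members and lists were chosen with earlier results of these data known. Members were named by rule: the 4 largest changes each way past the threshold in each comparison, the highest and lowest siNT level of each complex, up to 8 genes called the same way in all knockdowns, isoform and paralog genes, and the 4 Sdh genes. From each list, the largest change each way in siRpl11 and siRpl18 was eligible. The rule named 37 members, and 12 more were named after their values were seen.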

Additional observations from a re-analysis of the deposited data

How the results depend on the processing

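For single genes, 7745 values kept their side of the threshold under an alternative, 254 lost the call and 164 gained one. Another 24 turned direction with a call in the main fit, the alternative or both. Values called in neither fit are among the 7745 even where their direction turned. Leaving out 1 replicate gave 21 to 29 members higher, 23 to 27 lower and a median of -0.03 to 0.04 in siRpl11, 11 to 18, 21 to 29 and -0.06 to -0.01 in siRpl14, 12 to 22, 24 to 32 and -0.08 to 0.00 in siRpl18, and 13 to 21, 22 to 33 and -0.06 to -0.02 in siRpl23. For siRpl11 against the mean of the other 3 it gave 17 to 33, 6 to 15 and 0.03 to 0.07, and for the test among knockdowns 20 to 44. Median-ratio scaling gave 17 members lower and a median of 0.14 in siRpl11, and 59 higher, 3 lower and 0.21 against the other 3. The length and GC correction gave a median of 0.11 in siRpl11, and 57, 3 and 0.19 against the other 3. The test among knockdowns called 26 with no filter on low values, and the siRpl23 median was 0.023 with all 15 libraries. Same-numbered replicates are not tied by the labels, and their deviations correlated weakly and unevenly: of 10 correlations over all genes, from -0.0858 to 0.195, 5 were over 0.1, and over the members they ran from -0.0903 to 0.468. The members' summed FPKM was higher in replicate 2 than in replicate 1 in all 5 groups. With the replicate number as a block 33 members were higher and 34 lower in siRpl11, 22 and 36 in siRpl14, 26 and 36 in siRpl18, 24 and 36 in siRpl23, and 35 and 17 against the other 3, and 57 differed among knockdowns. Turned against the other 3 were, with median-ratio scaling, Atp5g3 (0.046), Ndufa13 (0.15), Sdhc (0.13), Sdhd (0.13) and Ndufa4 (0.0084). With the length and GC correction these were Atp5g3 (0.0036), Coq4 (0.046), Cox4i1 (0.16), Cox8a (0.19), Uqcr11 (0.068), Gata4 (0.016), Ndufa13 (0.29), Sdhc (0.14) and Sdhd (0.093), and with quantile normalization Coq4 (0.062), Gata4 (0.0074) and Atp5a1 (-0.034). Against siNT, quantile normalization turned Cox6b1 in siRpl14 (0.0030), Cox7c in siRpl14 and siRpl18 (0.0025) and Cox8a in siRpl23 (0.15), and the length and GC correction turned Cox8a (0.18), Atp5a1 (0.12) and Atp5d (0.059) in siRpl11. The causes were not tested. FPKM does not show what depth limits.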

Other observations

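Genes that supply the respiratory complexes with mitochondrial translation and imported proteins rose more often than they fell in siRpl11. Of 78 mitochondrial ribosomal protein genes tested, 42, 26, 33 and 30 rose and 11, 6, 9 and 7 fell in siRpl11, siRpl14, siRpl18 and siRpl23, with medians of 0.17, 0.09, 0.10 and 0.09. The shares higher were 53.8, 33.3, 42.3 and 38.5%, where 27.3, 33.3, 32.8 and 34.9% of all genes were higher. The shares lower were 14.1, 7.7, 11.5 and 9.0%, against 43.6, 29.5, 34.7 and 30.8% of all genes. With quantile normalization 37, 24, 28 and 23 rose and 10, 11, 14 and 14 fell. Mrps18b, of the small mitochondrial subunit, rose by 0.76 in siRpl11 and 0.66 in siRpl18, and Mrpl24, of the large one, fell by 0.70 and 0.63. Of 24 genes of mitochondrial protein import, 13, 6, 6 and 7 rose and 3, 7, 5 and 5 fell, and in siRpl11 the split was 18 and 1 with median-ratio scaling. The import shares higher were 54.2, 25.0, 25.0 and 29.2%, above that of all genes in siRpl11 and below it in the other knockdowns. The shares lower were 12.5, 29.2, 20.8 and 20.8%. Timm17a, part of the inner membrane translocase, rose by 0.65 in siRpl11 and 0.68 in siRpl18, while Hspd1, the matrix chaperonin, fell by 0.34 and 0.36.

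Genes of the cytosolic ribosome itself, without the 4 targets, were more often higher in siRpl11 than in the other knockdowns on the deposited scale, to an extent that depended on the scaling. Of 83 tested, 42 rose and 6 fell in siRpl11, against 12 and 19 in siRpl14, 16 and 19 in siRpl18, and 15 and 19 in siRpl23, with medians of 0.20, -0.06, -0.02 and -0.01. The shares higher were 50.6, 14.5, 19.3 and 18.1%, where 27.3, 33.3, 32.8 and 34.9% of all genes were higher. The shares lower were 7.2, 22.9, 22.9 and 22.9%, against 43.6, 29.5, 34.7 and 30.8% of all genes. Against the mean of the other 3 knockdowns, 61 were higher in siRpl11 and the other 22 did not pass the test, where 18.4% of all genes were higher. With quantile normalization 26 were higher and 13 lower in that comparison. Against siNT, quantile normalization gave 37 higher and 16 lower in siRpl11, 28 and 18 in siRpl14, 31 and 21 in siRpl18 and 29 and 17 in siRpl23, more higher than lower in each, with medians of 0.07, 0.00, 0.06 and 0.03. Rpl3 fell by 0.93 in both siRpl11 and siRpl18. Rps27l, known as a p53 target, rose by 0.75 in siRpl18. In the separately normalized libraries the medians of these 83 genes were 0.25, 0.12, 0.08 and 0.17. The sign of the median thus turned in siRpl14, siRpl18 and siRpl23. Of the called genes of this list, 97.9, 71.0, 80 and 70.6% had the same sign there. Over all called genes these shares were 91.8, 91.0, 90.7 and 88.9%.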
